A study of Mus musculus with 12 samples.

Results

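The genes described are the E2F factors E2f1 to E2f8 and the RB proteins Rb1 and Rbl1 in mouse colonic crypts, 10 genes taken by symbol from a table of 55471. All 10 passed the filter on low counts, which kept 14610 genes for testing. RNA was sequenced from 12 mice, 3 in each of 4 groups, with 1 library per mouse. The mice were 8-week-old females of the C57BL/6 background. The labels call the groups WT, AA, p53koWT and p53koAA, and the study names them CBPWTp53-floxed, CBPAAp53-floxed, CBPWTp53ΔIEC and CBPAAp53ΔIEC. CBPAA mice carry alanines in place of phosphorylated serines of CBP, the histone acetyltransferase encoded by Crebbp, as a knock-in in every cell. All 4 groups carry floxed Trp53 alleles, and the p53ΔIEC groups also carry a Cre driven by the Villin promoter, which deletes p53 in intestinal epithelial cells. The p53-floxed groups have no Cre, so the presence of Cre and the loss of p53 cannot be told apart here. Crypts were released from the tissue with EDTA.

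E2F factors bind DNA, mostly as dimers with a DP protein, and set the activity of genes for DNA replication and cell division. E2F1, E2F2 and E2F3 are known as activators that RB holds in check until cyclin-dependent kinases phosphorylate it. E2F4 and E2F5 act mainly as repressors with the RB relatives p107 (Rbl1) and p130 (Rbl2), and in the DREAM complex they keep cell cycle genes silent in resting cells. E2F6 represses without RB, and E2F7 and E2F8 are repressors that bind without DP and rise late in the cycle. In the colon, dividing cells lie in the lower crypt. p53 induces p21 (Cdkn1a), an inhibitor of the kinases that phosphorylate RB.

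The labels of the crypts were checked against known markers. Trp53 lay between 23.3 and 33.5 TPM in the 6 p53-floxed mice and between 3.26 and 6.13 TPM in the 6 p53ΔIEC mice. TPM is the deposited level, scaled for gene length and library size. Krt8 and Epcam, markers of epithelium, averaged 5219 and 1265 TPM. Markers of other cells were low but not all absent. Of 6 stromal genes, Pdgfra, Col1a1, Col3a1 and Dcn had at most 9 reads in any library, while Vim had up to 89 and Pdgfrb up to 218, and their summed TPM was 4.63 to 8.33 in p53-floxed and 4.18 to 6.04 in p53ΔIEC mice. Of 4 endothelial genes, Cdh5 had no read and Kdr at most 2, while Pecam1 had up to 43 and Vwf up to 67, with summed TPM of 0.971 to 1.39 in p53-floxed and 1.10 to 1.65 in p53ΔIEC mice. Among leukocyte genes Ptprc had up to 145 reads, and the summed TPM was 3.70 to 6.38 in p53-floxed and 4.27 to 8.04 in p53ΔIEC mice. Pdgfrb, a receptor of pericytes and fibroblasts, fell in p53ΔIEC crypts, by 0.97 on the log2 scale in CBPWTp53ΔIEC vs. CBPWTp53-floxed (SE 0.22, edgeR adjusted p = 0.0344) and by 0.86 in the average over CBP genotypes (SE 0.15, edgeR adjusted p = 0.0117). The part of such cells in the results was not tested. Genes of Paneth cells, which mark the small intestine, were present in some libraries. Their summed TPM was 11327 in CBPWTp53ΔIEC replicate 1, 2873 in CBPAAp53ΔIEC replicate 3, 1610 in CBPAAp53ΔIEC replicate 1 and 639 in CBPAAp53-floxed replicate 2, against 4.00 to 46.7 in the other 8. The first of these also had the lowest mean correlation with its own group, 0.952. CBPWTp53ΔIEC replicate 1 and CBPAAp53ΔIEC replicate 3 stand apart from the other p53ΔIEC libraries for several of the E2F genes, so results are given with and without them. In the sample descriptions, the numbers after the genotype of these libraries are below those of all p53-floxed libraries. The numbers of the other p53ΔIEC libraries are above those of all p53-floxed libraries. What the numbers stand for is not given, and their part in the results was not tested.

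Promoter sequences are shown first so that the levels of the E2F and RB genes can be read beside the binding words of their own family. RefSeq (GRCm38.p6) had promoter windows, from 250 bases before to 50 after the transcription start, for 7 of the 10 genes, with none used here for E2f4, E2f5 and Rb1. An E2F word was searched on both strands as TTTCCCGC, TTTCGCGC, TTTGCCGC or TTTGGCGC, and a cell cycle homology region (CHR), the element read by DREAM, as TTTGAA. The windows of E2f2, E2f7, E2f3 and Rbl1 held an E2F word, which 2.26% of all 32817 promoter windows held. The windows of E2f2, E2f8 and E2f3 held a CHR word, against 17.9% of all windows. A window with both words was found for E2f3, against 0.274% of all. The NF-Y box, searched as CCAAT on both strands, was in the windows of E2f2, E2f3, E2f7 and E2f8 and in 37.4% of all windows. The stretches that hold the words are printed 5′ to 3′ on the strand of the gene, with the word in capitals.
E2f2 first start, chr4:136172294-136172323, plus strand, E2F word at base 40 after the start: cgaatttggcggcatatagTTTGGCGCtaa
E2f2 second start, chr4:136180739-136180768, plus strand, CHR word 31 bases before the start: atagcctgtgtgTTTGAAtggtgtggaaca
E2f7, chr10:110745230-110745259, plus strand, E2F word on the other strand, first base at -198: cccgcgtccccGCGGGAAAcgctcccgcgt
E2f8, chr7:48881599-48881628, minus strand, CHR word on the other strand, 20 bases before the start: gagcgggttaatTTCAAAtcgggggctgga
E2f3, chr13:29986062-29986091, minus strand, CHR word 23 bases and E2F word on the other strand 11 bases before the start: tatggTTTGAAaagccgGCGGGAAAtctga
Rbl1, chr2:157204534-157204563, minus strand, E2F word 18 bases before the start: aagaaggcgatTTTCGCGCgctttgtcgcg
By the GENCODE M21 gene models, the second E2f2 stretch lies inside the gene, the E2f3 and Rbl1 stretches cross the first base of theirs, and the others lie before the gene. Neither the E2F nor the CHR word was in the windows of E2f1 and E2f6. The RefSeq window of E2f1 lies inside its gene model, so the sequence before the annotated gene was not searched. These matches describe letters in the windows and do not show binding.

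**Figure D1:**
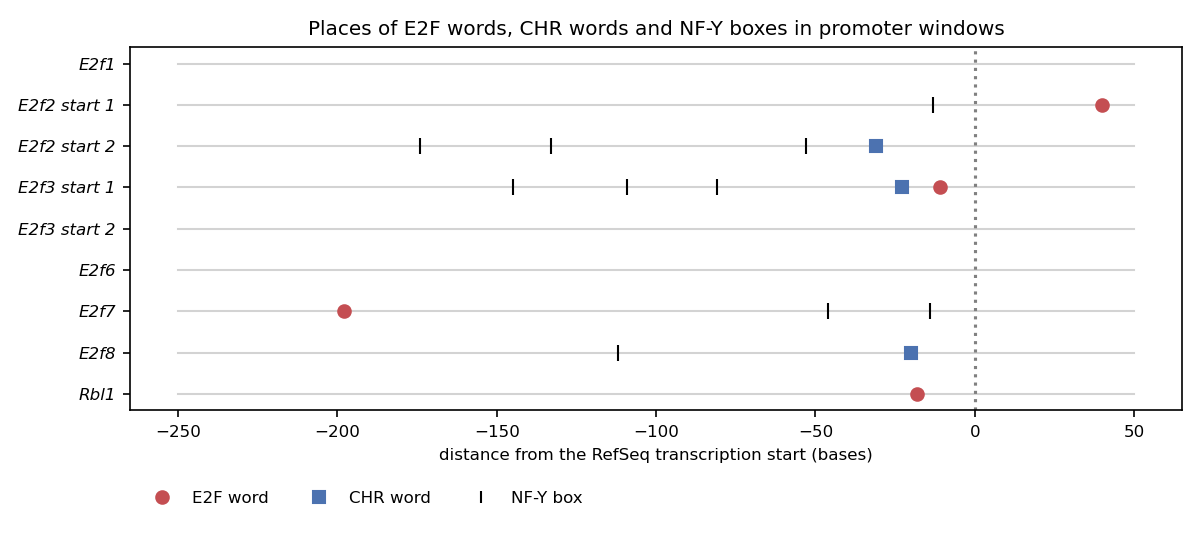
Distance of the words from the RefSeq start, in bases, along each promoter window (grey lines, 250 bases before to 50 after the start). Circles are E2F words, squares CHR words and ticks NF-Y boxes, plotted at the first base of the word. E2f3, E2f8, Rbl1 and the second start of E2f2 have a word within 31 bases before the start, and E2f7 has its E2F word at -198.

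In the mean over all crypts E2f4 and E2f5 were the most abundant members, and the other repressors, E2f6, E2f7 and E2f8, were below the activators E2f2 and E2f3. The mean over 12 mice was 59.1 TPM for E2f4 and 43.5 TPM for E2f5, followed by Rb1 (17.9 TPM), Rbl1 (14.6 TPM), E2f2 (14.1 TPM), E2f3 (11.5 TPM), E2f8 (8.18 TPM), E2f6 (7.41 TPM), E2f1 (5.87 TPM) and E2f7 (1.06 TPM). Within the p53-floxed mice the ranges of E2f4 (43.8 to 57.7 TPM) and E2f5 (37.6 to 50.2 TPM) overlapped, as did those of Rbl1 (10.3 to 14.6 TPM), E2f3 (8.05 to 13.5 TPM) and E2f2 (6.41 to 10.5 TPM), while E2f7 (0.340 to 0.669 TPM) lay below all others in every mouse. The order of neighbours in the middle of the list is therefore not set by these data. E2f4 and E2f5 together made up 68.0% to 76.2% of the summed TPM of E2f1 to E2f8 in the p53-floxed mice. The highest mouse exceeded the lowest 8.41-fold for E2f7, 7.14-fold for E2f8, 4.82-fold for E2f2 and 3.68-fold for E2f1, but 1.70-fold for E2f4 and 1.34-fold for E2f5.

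Averaged over CBP genotypes, E2f1, E2f2, E2f7 and E2f8 rose in p53ΔIEC crypts, and the other 6 members did not pass the test. The levels of each gene are given first.

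E2f1 (ENSMUSG00000027490, chr2:154559407-154569892, minus strand, GRCm38), an activator of S phase genes, was the lowest of the activators. Its levels were 3.47, 3.24 and 3.89 TPM in CBPWTp53-floxed, 4.59, 4.22 and 3.25 TPM in CBPAAp53-floxed, 4.34, 8.90 and 11.9 TPM in CBPWTp53ΔIEC, and 9.42, 9.15 and 4.07 TPM in CBPAAp53ΔIEC mice, in the order of replicates 1 to 3. In 4 of 6 p53ΔIEC mice E2f1 lay above every p53-floxed mouse in TPM. CBPWTp53ΔIEC replicate 1 and CBPAAp53ΔIEC replicate 3 lay within the p53-floxed range in TPM. In normalised counts (CPM) the p53-floxed range of E2f1 was 3.95 to 5.63. CBPWTp53ΔIEC replicate 1 lay above that range at 6.44 CPM, and CBPAAp53ΔIEC replicate 3 lay within it at 5.04 CPM.

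E2f2 (ENSMUSG00000018983, chr4:136172394-136196057, plus strand), a second activator, was measured at 9.58, 8.54 and 8.16 TPM in CBPWTp53-floxed, 10.5, 8.16 and 6.41 TPM in CBPAAp53-floxed, 12.3, 23.6 and 30.9 TPM in CBPWTp53ΔIEC, and 20.3, 21.5 and 8.98 TPM in CBPAAp53ΔIEC mice. Of the p53ΔIEC mice, 5 of 6 were above every p53-floxed mouse, with CBPWTp53ΔIEC replicate 1 the lowest of these 5 and CBPAAp53ΔIEC replicate 3 the exception.

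E2f3 (ENSMUSG00000016477, chr13:29906575-29986063, minus strand), the third activator, varied less. It stood at 9.83, 10.7 and 11.9 TPM in CBPWTp53-floxed, 13.5, 9.66 and 8.05 TPM in CBPAAp53-floxed, 8.55, 11.5 and 16.7 TPM in CBPWTp53ΔIEC, and 12.2, 14.4 and 10.4 TPM in CBPAAp53ΔIEC mice. All 4 groups overlapped.

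E2f7 (ENSMUSG00000020185, chr10:110745439-110787384, plus strand), an atypical repressor, was the rarest member, with 16 to 132 reads per library. It was found at 0.405, 0.542 and 0.499 TPM in CBPWTp53-floxed, 0.669, 0.340 and 0.558 TPM in CBPAAp53-floxed, 0.727, 1.93 and 2.86 TPM in CBPWTp53ΔIEC, and 1.75, 1.79 and 0.703 TPM in CBPAAp53ΔIEC mice. All 6 p53ΔIEC mice lay above every p53-floxed mouse, although CBPWTp53ΔIEC replicate 1 and CBPAAp53ΔIEC replicate 3 were close to the highest of them.

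E2f8 (ENSMUSG00000046179, chr7:48866429-48881596, minus strand), the other atypical repressor, had 90 to 533 reads per library. Its levels were 4.19, 4.57 and 4.15 TPM in CBPWTp53-floxed, 7.42, 2.45 and 3.20 TPM in CBPAAp53-floxed, 5.83, 16.4 and 17.5 TPM in CBPWTp53ΔIEC, and 13.7, 13.6 and 5.21 TPM in CBPAAp53ΔIEC mice. CBPAAp53-floxed replicate 1 exceeded the same pair of low p53ΔIEC libraries, and the other 4 p53ΔIEC mice were above every p53-floxed mouse.

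**Figure D2:**
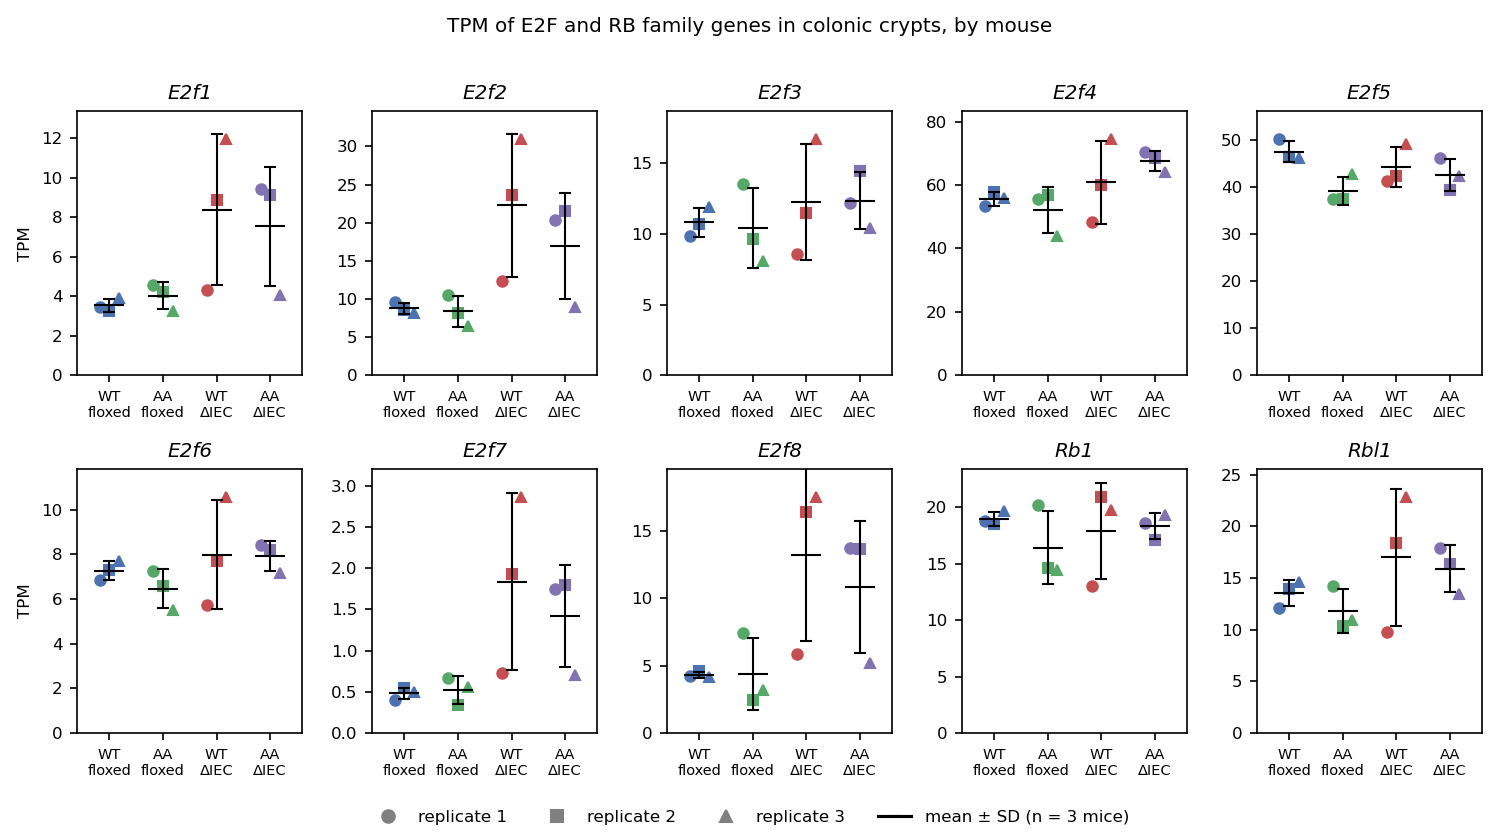
TPM of the 10 genes by mouse (points, shaped by replicate number) in the CBPWT (WT) and CBPAA (AA) groups, p53-floxed (floxed) and p53ΔIEC (ΔIEC), with mean ± SD of 3 mice. E2f1, E2f2, E2f7 and E2f8 are high in 4 p53ΔIEC mice and near the p53-floxed level in CBPWTp53ΔIEC replicate 1 and CBPAAp53ΔIEC replicate 3, while for E2f5 and Rb1 the p53ΔIEC and p53-floxed mice overlap.

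Of the repressors, E2f4 (ENSMUSG00000014859, chr8:105297663-105305370, plus strand), the main E2F of resting cells, was at 53.4, 57.7 and 55.9 TPM in CBPWTp53-floxed, 55.7, 56.8 and 43.8 TPM in CBPAAp53-floxed, 48.2, 60.1 and 74.4 TPM in CBPWTp53ΔIEC, and 70.3, 68.4 and 64.2 TPM in CBPAAp53ΔIEC mice. The 3 CBPAAp53ΔIEC mice lay above all p53-floxed mice in TPM, as did 2 of the 3 CBPWTp53ΔIEC mice. E2f5 (ENSMUSG00000027552, chr3:14578641-14606309, plus strand), its closest relative, was at 50.2, 46.4 and 46.1 TPM in CBPWTp53-floxed, 37.6, 37.6 and 42.7 TPM in CBPAAp53-floxed, 41.3, 42.5 and 49.3 TPM in CBPWTp53ΔIEC, and 46.1, 39.4 and 42.5 TPM in CBPAAp53ΔIEC mice. No p53ΔIEC mouse exceeded the highest p53-floxed mouse for E2f5. In TPM the CBPAAp53-floxed mice all lay below the CBPWTp53-floxed mice for E2f5, but the groups overlapped in normalised counts.

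E2f6 (ENSMUSG00000057469, chr12:16810963-16839742, plus strand), which represses with Polycomb proteins, ranged from 5.53 to 10.5 TPM over all mice, with the highest value in CBPWTp53ΔIEC replicate 3. Rb1 (ENSMUSG00000022105, chr14:73183673-73325822, minus strand), the retinoblastoma protein, was at 18.8, 18.5 and 19.7 TPM in CBPWTp53-floxed, 20.2, 14.7 and 14.5 TPM in CBPAAp53-floxed, 13.1, 20.9 and 19.7 TPM in CBPWTp53ΔIEC, and 18.6, 17.1 and 19.3 TPM in CBPAAp53ΔIEC mice. The groups of Rb1 overlapped, and both the lowest and the highest mouse were CBPWTp53ΔIEC mice.

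Rbl1 (ENSMUSG00000027641, chr2:157145893-157204534, minus strand), the p107 relative that is itself known as an E2F target, was at 12.1, 13.9 and 14.6 TPM in CBPWTp53-floxed, 14.2, 10.3 and 10.9 TPM in CBPAAp53-floxed, 9.76, 18.4 and 22.8 TPM in CBPWTp53ΔIEC, and 17.9, 16.4 and 13.4 TPM in CBPAAp53ΔIEC mice. It was highest in the 4 p53ΔIEC mice in which E2f1 was high, and in TPM lowest of all 12 in CBPWTp53ΔIEC replicate 1. In normalised counts CBPAAp53-floxed replicate 2 was lower (26.2 CPM) than CBPWTp53ΔIEC replicate 1 (27.5 CPM). Exons of E2f5, E2f7, E2f8 and Rb1 overlap genes on the opposite strand (1810022K09Rik, 1700020G17Rik, Gm2788, and Lpar6 and Rcbtb2). Whether the counting used strand is not given in the sources used here, so the counts of these 4 genes are uncertain to that extent.

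Loss of p53 was tested first in mice with wild-type CBP. A gene was called where its adjusted p was below 0.05 and its log2 fold change was larger than 0.5 in either direction, from edgeR's quasi-likelihood fit to all 12 libraries. In CBPWTp53ΔIEC vs. CBPWTp53-floxed crypts, 3 of the 10 genes rose and none fell, where 3.15% of all genes were called and 2.29% were called higher. E2f7 rose by a log2 fold change of 1.89 (SE 0.41, edgeR adjusted p = 0.0340), E2f2 by 1.34 (SE 0.29, edgeR adjusted p = 0.0347) and E2f1 by 1.23 (SE 0.30, edgeR adjusted p = 0.0418), or 3.70-fold, 2.52-fold and 2.35-fold. E2f8 had a log2 fold change of 1.597 (SE 0.45) and missed the threshold (edgeR adjusted p = 0.0782). The groups did not overlap in normalised counts for 5 of the 10 genes, E2f1, E2f2, E2f4, E2f7 and E2f8, all of them higher, beside 30.8% of all genes without overlap and 16.1% without overlap and higher. The 6 members other than E2f1, E2f2, E2f7 and E2f8 had log2 fold changes between -0.07 for Rb1 and 0.32 for Rbl1.

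These calls depended on single libraries. Without CBPWTp53-floxed replicate 1, 2 or 3, or CBPWTp53ΔIEC replicate 2 or 3, 0 of the 10 genes were called in this comparison, and 1, E2f7, was called without CBPAAp53-floxed replicate 3. The loss was general: of all genes, 460 were called with every library, 1 to 7 in the 5 settings without a called member, and 253 without CBPAAp53-floxed replicate 3. Without CBPWTp53ΔIEC replicate 1, 5 were called, E2f8 and Rbl1 in addition, beside 906 of all genes. With CBPWTp53ΔIEC replicate 1 and CBPAAp53ΔIEC replicate 3 both left out, the log2 fold changes were 2.19 for E2f7, 1.88 for E2f8, 1.54 for E2f2, 1.46 for E2f1 and 0.51 for Rbl1. Those libraries are among the low ones for these genes, so their removal is no independent evidence.

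In mice with CBPAA, deletion of p53 gave 0 called members in CBPAAp53ΔIEC vs. CBPAAp53-floxed crypts, where edgeR called 4 genes of all (0.0274%), DESeq2 called 69, and 1841 had an unadjusted p under 0.05. DESeq2 called 0 of the 10 genes as well, and 5 of them had an unadjusted p under 0.05 in edgeR. The log2 fold changes were 1.32 for E2f7 (SE 0.41), 1.22 for E2f8 (SE 0.45), 0.89 for E2f2 (SE 0.29) and 0.77 for E2f1 (SE 0.30), with edgeR adjusted p between 0.320 and 0.349. E2f4 was 0.25 higher on the log2 scale (SE 0.09) at an edgeR adjusted p of 0.349. Groups did not overlap for E2f4, E2f6 and E2f7, which were higher, beside 15.0% of all genes without overlap and 7.86% without overlap and higher. Without CBPAAp53ΔIEC replicate 3, E2f1, E2f2 and E2f7 were called, and without both low libraries E2f8 was called too, at log2 fold changes of 1.64 for E2f7, 1.55 for E2f8, 1.18 for E2f2 and 1.05 for E2f1.

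**Figure D3:**
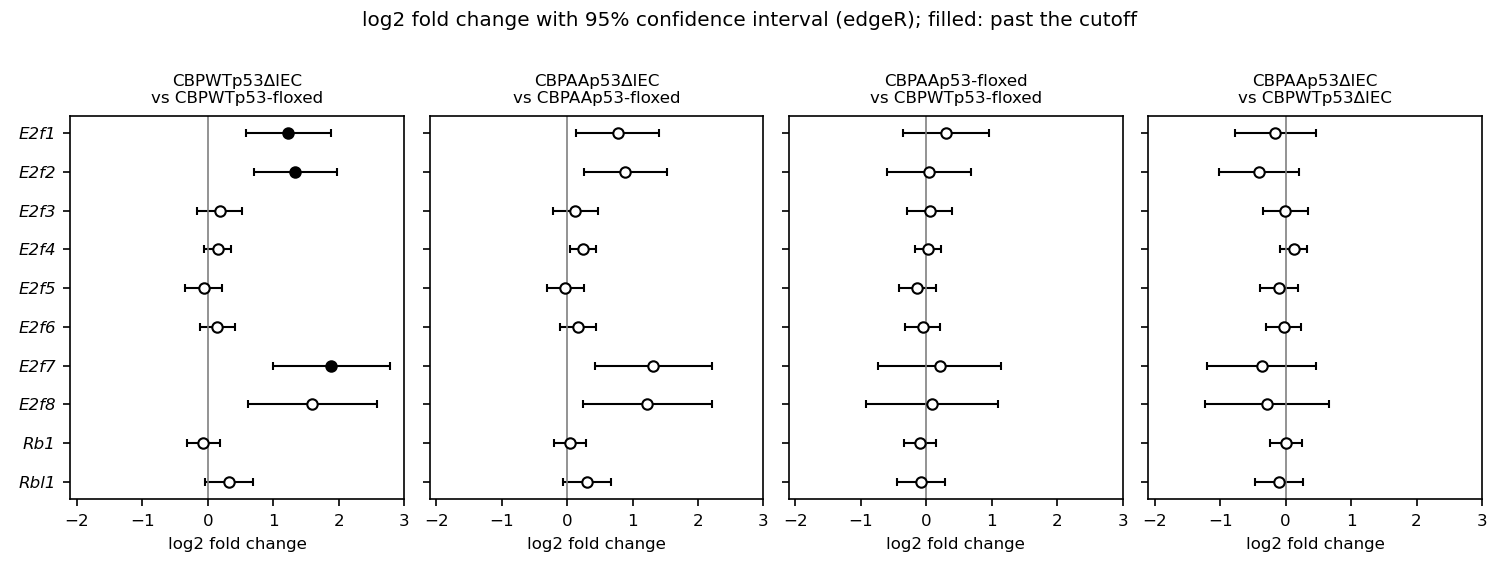
Log2 fold change of the 10 genes in the 4 comparisons of pairs of groups, with 95% confidence intervals from edgeR. Filled points passed the cutoff and open points did not. E2f1, E2f2, E2f7 and E2f8 lie above 0 in both p53 comparisons, as do E2f3, E2f4, E2f6 and Rbl1 with smaller changes. Every interval in both CBP comparisons includes 0.

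Averaged over both CBP genotypes, 4 of the 10 genes rose in p53ΔIEC vs. p53-floxed crypts, where 3.50% of all genes were called and 2.77% called higher. The log2 fold change was 1.603 for E2f7 (SE 0.29, edgeR adjusted p = 0.0132), 1.41 for E2f8 (SE 0.32, edgeR adjusted p = 0.0327), 1.11 for E2f2 (SE 0.20, edgeR adjusted p = 0.0151) and 1.00 for E2f1 (SE 0.21, edgeR adjusted p = 0.0192). This average uses the same libraries as the comparisons within each CBP genotype. Rbl1 (0.31, SE 0.12) and E2f4 (0.20, SE 0.07) missed the threshold at edgeR adjusted p values of 0.152 and 0.103. E2f3 and E2f6 stood at 0.16 each, Rb1 at -0.01 and E2f5 at -0.04, with 95% intervals from -0.19 to 0.16 for Rb1 and from -0.24 to 0.16 for E2f5. Without CBPWTp53-floxed replicate 3 none of the 10 was called, beside 105 of all genes against 511 with every library, and without CBPWTp53-floxed replicate 1 or 2, CBPAAp53-floxed replicate 3, CBPWTp53ΔIEC replicate 3 or CBPAAp53ΔIEC replicate 1 or 2 the calls were E2f2 and E2f7, beside 168 to 240 of all genes. Without both low libraries the same 4 genes were called, beside 1697 of all genes, at 1.91 for E2f7, 1.72 for E2f8, 1.36 for E2f2 and 1.26 for E2f1.

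The CBP genotype was tested in the same way. For the CBP comparisons and the interaction that follow, DESeq2 also called 0 of the 10 genes, and 0 had an unadjusted p under 0.05 in edgeR. In CBPAAp53-floxed vs. CBPWTp53-floxed crypts 0 of the 10 genes were called, beside 0% of all genes by edgeR, 33 genes by DESeq2 and 1174 genes at an unadjusted p under 0.05. E2f1 was 0.30 higher on the log2 scale (95% interval -0.35 to 0.96). Its normalised counts were higher without overlap, beside 19.4% of all genes without overlap and 9.75% without overlap and higher. E2f5 was at -0.14 (95% interval -0.42 to 0.14). In CBPAAp53ΔIEC vs. CBPWTp53ΔIEC crypts 0 of the 10 were called, beside 0.00684% of all genes. The log2 fold changes there were -0.40 for E2f2 (95% interval -1.02 to 0.21), -0.37 for E2f7 (-1.19 to 0.46), -0.28 for E2f8 (-1.23 to 0.66) and -0.16 for E2f1 (-0.78 to 0.46), so that changes of such sizes remain within the error. The groups overlapped for every member in that comparison, where 9.26% of all genes had none.

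Whether the response to p53 loss differed between CBP genotypes was tested as an interaction. None of the 10 genes passed it in edgeR, beside 0.00684% of all genes. The difference in log2 fold change, CBPAA minus CBPWT, was -0.57 for E2f7 (95% interval -1.83 to 0.69), -0.46 for E2f1 (-1.36 to 0.44), -0.44 for E2f2 (-1.33 to 0.44) and -0.37 for E2f8 (-1.76 to 1.01). The effects of p53 loss were thus not shown to differ between CBPWT and CBPAA mice, nor to be alike. Averaged over p53 states, CBPAA vs. CBPWT gave 0 called members, beside 0.00684% of all genes, with log2 fold changes between -0.18 for E2f2 and 0.07 for E2f4.

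The E2F genes that rose varied together over mice. Across the 12 libraries, Pearson's r of log2 normalised counts (CPM) lay between 0.902 and 0.961 for the 6 pairs among E2f1, E2f2, E2f7 and E2f8, a set chosen after their values were seen. Rbl1 followed them at 0.797 to 0.888, E2f6 at 0.723 to 0.801, E2f3 at 0.665 to 0.699 and E2f4 at 0.562 to 0.711. Rb1 (-0.14 to 0.15) and E2f5 (-0.36 to -0.25) did not. The points share their groups and the libraries that stand apart, so these values describe the 12 libraries only.

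Of all genes tested, those most like E2f1 over the 12 libraries were Rangap1 (r = 0.986), Tacc3 (0.981) and Tcf19 (0.981). E2f2 was closest to Gtse1 (0.989), Nup62 (0.989) and Cdca8 (0.987), E2f7 to AI506816 (0.985), Anln (0.984) and Pole (0.983), and E2f8 to Gas2l3 (0.986), Kif23 (0.985) and Mki67 (0.984). Tacc3, Gtse1, Cdca8, Anln and Kif23 are known for roles in mitosis or cytokinesis, Pole encodes a DNA polymerase subunit, and Mki67 encodes the proliferation marker Ki-67. The closest gene was Dusp6 for Rbl1 (0.953), Tecr for E2f4 (0.921), Fgl2 for E2f5 (0.916), Nkrf for E2f6 (0.953) and Lipo3 for Rb1 (0.964).

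Genes of dividing cells moved with these E2F genes. The summed TPM of 6 cycling cell genes (Cdk1, Aurkb, Top2a, Bub1, Mki67 and Ccnb1) was 40.1 to 74.7 in the p53-floxed mice, 93.6 in CBPWTp53ΔIEC replicate 1, 67.6 in CBPAAp53ΔIEC replicate 3 and 208 to 274 in the other 4 p53ΔIEC mice. The summed TPM of E2f1, E2f2, E2f7 and E2f8 was 13.4 to 23.2, 23.2, 19.0 and 45.2 to 63.2 in the same mice. Divided by the cycling gene sum, it was 0.259 to 0.378 in the p53-floxed mice, 0.248 and 0.281 in the 2 low libraries, and 0.186 to 0.240 in the other 4. The 4 mice high in E2F genes, and CBPWTp53ΔIEC replicate 1 among the low libraries, thus lay below every p53-floxed mouse on this ratio. In bulk RNA, more cells of a type and more RNA per cell cannot be told apart. E2f4 and E2f5 made up 57.8% to 63.9% of the E2F sum in the 4 high p53ΔIEC mice, while their own summed TPM was 103 to 124 in these mice and 86.6 to 104 in the p53-floxed mice.

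**Figure D4:**
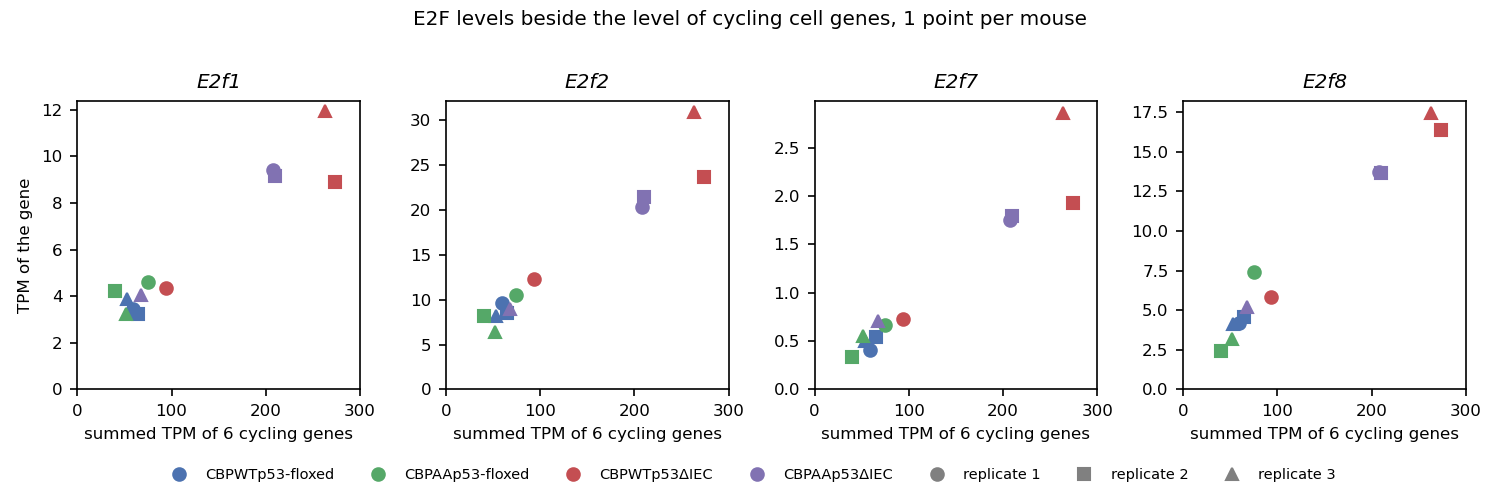
TPM of E2f1, E2f2, E2f7 and E2f8 against the summed TPM of 6 cycling cell genes, 1 point per mouse, coloured by group and shaped by replicate number. The 4 p53ΔIEC mice with cycling gene sums of 208 to 274 hold the highest levels of all 4 genes, and CBPWTp53ΔIEC replicate 1 and CBPAAp53ΔIEC replicate 3 lie near the p53-floxed mice.

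The same 2 low libraries, CBPWTp53ΔIEC replicate 1 and CBPAAp53ΔIEC replicate 3, held the highest Paneth cell sums. They also had the highest summed TPM of small intestine genes, 3586 and 1533. CBPAAp53ΔIEC replicate 1 came next among p53ΔIEC mice, with 1610 TPM of Paneth cell and 651 TPM of small intestine genes. It had 9.42 TPM of E2f1 and 13.7 TPM of E2f8. CBPAAp53-floxed replicate 2 had 639 TPM of Paneth cell and 762 TPM of small intestine genes. This mouse had the lowest E2f7 (0.340 TPM), E2f8 (2.45 TPM) and cycling gene sum (40.1 TPM) of all. Its E2f1 (4.22 TPM) and E2f2 (8.16 TPM) lay within the range of the other p53-floxed mice. Trp53 was at 5.44 and 6.13 TPM in the 2 low libraries and at 3.26 to 5.05 TPM in the other p53ΔIEC mice. The part of small intestinal RNA in the results was not tested beyond leaving out all 4 libraries with over 500 TPM, a setting chosen after seeing the data. This setting also removed both low libraries, so it is no separate check. It kept only replicate 2 of CBPAAp53ΔIEC, so its calls are not given. In CBPAAp53ΔIEC vs. CBPAAp53-floxed the log2 fold changes were then 1.41 for E2f7, 1.25 for E2f8, 1.22 for E2f2 and 1.09 for E2f1. In CBPWTp53ΔIEC vs. CBPWTp53-floxed they were 2.18, 1.88, 1.54 and 1.46 in the same order.

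Partners and regulators of the E2F and RB genes were read from lists of known pathway genes, whose counts stand beside 2.77% of all genes called higher in the average over CBP genotypes. Of 9 tested partners and subunits of the MuvB and DREAM complexes, 2 rose in the average over CBP genotypes: Foxm1 (log2 fold change 1.82, SE 0.34, edgeR adjusted p = 0.0182), a factor that drives mitotic genes, and Mybl2 (1.07, SE 0.21, edgeR adjusted p = 0.0175), which joins MuvB in S phase. The median of this list was 0.20, beside 0.01 for all genes, and with single libraries left out 0 to 2 of the list were called. Foxm1 was at 3.17, 4.25 and 2.92 TPM in CBPWTp53-floxed, 4.47, 2.87 and 2.22 TPM in CBPAAp53-floxed, 5.48, 16.3 and 20.4 TPM in CBPWTp53ΔIEC, and 14.4, 14.1 and 4.16 TPM in CBPAAp53ΔIEC mice, with the same 2 libraries low. The DP proteins Tfdp1 and Tfdp2 stood at 0.37 (edgeR adjusted p = 0.0543) and -0.10 (0.655), and Rbbp4 at 0.20 (0.134).

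Rbl2, the third RB family gene, which encodes p130 of resting cells, was at 21.1, 21.2 and 23.9 TPM in CBPWTp53-floxed, 22.9, 16.4 and 17.6 TPM in CBPAAp53-floxed, 12.4, 16.7 and 18.5 TPM in CBPWTp53ΔIEC, and 17.9, 18.3 and 21.8 TPM in CBPAAp53ΔIEC mice. All CBPWTp53ΔIEC mice lay below all CBPWTp53-floxed mice, and the CBPAA groups overlapped. In CBPWTp53ΔIEC vs. CBPWTp53-floxed its log2 fold change was -0.45 (SE 0.11, edgeR adjusted p = 0.0460), which misses the cutoff in size, and it was -0.10 in CBPAAp53ΔIEC vs. CBPAAp53-floxed (edgeR adjusted p = 0.738).

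Of 17 cyclins, kinases and inhibitors upstream of RB, 4 rose in the average over CBP genotypes: Ccna2 (1.74), Ccne1 (1.31), Skp2 (1.10) and Cdkn2c (1.07), with edgeR adjusted p between 0.0117 and 0.0175, and 1 to 7 were called with single libraries left out. Ccna2 and Ccne1 encode cyclins of S phase entry, Skp2 a subunit of the ligase that degrades p27, and Cdkn2c the kinase inhibitor p18. The abundant members did not pass: Cdkn1a, which encodes p21, was at -0.12 (edgeR adjusted p = 0.670), Ccnd2 at 0.09 (0.728), Ccnd1 at 0.27 (0.0962) and Cdkn1b at -0.09 (0.527). Cdkn1a lay between 120 and 214 TPM in p53-floxed and was at most 184 TPM in p53ΔIEC mice, and the ranges overlapped.

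Most genes in the lists of known targets of the family rose in the average over CBP genotypes. Of 28 S phase targets of E2F, 26 rose in the average over CBP genotypes, with a median log2 fold change of 0.91, and all 28 were above 0, as were 51.6% of all genes. They included Pcna (0.55), Dnmt1 (0.71), Mcm7 (0.76) and Mcm6 (0.78), and reached 1.63 for Brca1. Of 20 targets of DREAM in G2 and M phase, 19 rose, with a median of 1.69, among them Mki67 (1.51), Top2a (1.71), Kif11 (1.76) and Ube2c (1.75). In CBPWTp53ΔIEC vs. CBPWTp53-floxed 22 of 28 and 15 of 20 rose, with medians of 1.29 and 1.896. In CBPAAp53ΔIEC vs. CBPAAp53-floxed edgeR called 0 of either list, where it called 0 of all genes higher and 4 lower. All 28 and all 20 were above 0 there, as were 52.2% of all genes, with medians of 0.58 and 1.42. DESeq2 called 0 and 8 of them, and 17 and 20 had an unadjusted p under 0.05 in edgeR.

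The targets split the p53ΔIEC mice as the E2F genes did. The G2 and M phase list shares genes, among them Mki67 and Top2a, with the cycling cell genes, so these lists are not separate observations. The summed TPM of the S phase targets was 268 to 385 in the p53-floxed mice, 387 in CBPWTp53ΔIEC replicate 1, 309 in CBPAAp53ΔIEC replicate 3 and 577 to 771 in the other 4 p53ΔIEC mice. For the G2 and M phase targets it was 133 to 206, 280, 179 and 579 to 739 in the same mice. CBPAAp53ΔIEC replicate 3 thus lay within the p53-floxed range for both lists, and CBPWTp53ΔIEC replicate 1 lay just above it for the S phase list and between the 2 ranges for the G2 and M phase list. Without both libraries all 28 and all 20 were called in the average, and 24 and 20 in CBPAAp53ΔIEC vs. CBPAAp53-floxed, where leaving out CBPAAp53ΔIEC replicate 3 alone gave 15 and 18. With single libraries left out, the numbers called in the average ranged from 9 to 28 and from 3 to 20, with the lowest without CBPWTp53-floxed replicate 3. In CBPWTp53ΔIEC vs. CBPWTp53-floxed they ranged from 0 to 27 and from 0 to 19.

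Of 12 members of the Polycomb complex that holds E2F6, 1 was called in the average, L3mbtl2 (0.52, edgeR adjusted p = 0.0211), beside 2.77% of all genes called higher. The list had a median of -0.02, and 0 or 1 of it was called with single libraries left out. The abundant members Max, Hdac1, Mga and Wdr5 stood between -0.30 and 0.17 and did not pass. In CBPAAp53-floxed vs. CBPWTp53-floxed no gene of any of these lists was called, and the medians ranged from -0.02 to 0.36. The highest median was that of the S phase targets, of which 26 of 28 were above 0, beside 52.0% of all genes. In the interaction 1 of these 28 was above 0, beside 47.5% of all genes, and 0 were called. Whether the S phase targets differed as a set was not tested.

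**Figure D5:**
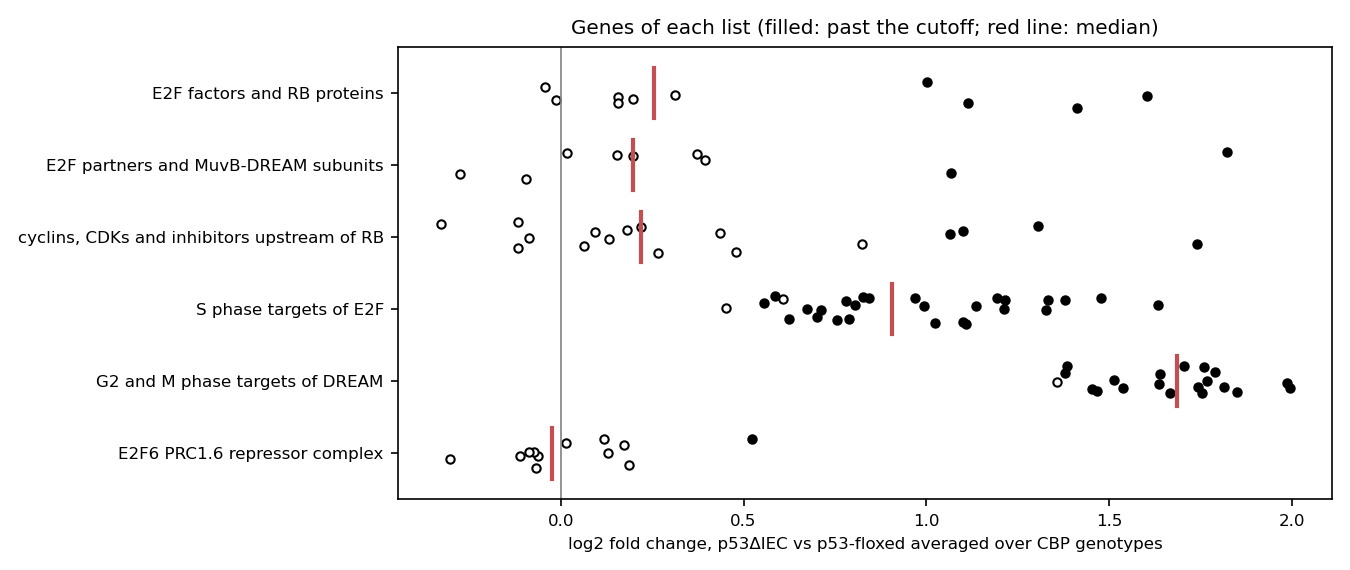
Log2 fold change in p53ΔIEC vs. p53-floxed crypts, averaged over CBP genotypes, for each tested gene of 6 lists (points, spread vertically for sight), with the median of the list in red. Filled points passed the cutoff. All S phase and G2 and M phase targets lie above 0, with medians of 0.91 and 1.69, and the members of the E2F6 complex lie around 0.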

How the data were processed

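Colonic crypts of 12 mice were measured by mRNA sequencing, with 3 mice in each of 4 groups taken from the labels. The authors deposited 1 table with raw read counts and TPM per gene and library, and with columns of their own differential tests, which were not used. The submitters' processing notes list fastp 0.20.0, FastQC 0.11.9, HISAT2 2.1.0, SAMtools 1.9, featureCounts of Subread 2.0.1 and GRCm38. Strand use in counting and the test behind the authors' columns are not given in the sources used here. Libraries held 11177430 to 18029125 counts.

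Counts were fitted with edgeR 4.0.16 in R 4.3.3 (filterByExpr with a minimum count of 10, TMM, robust quasi-likelihood, 1 factor of 4 groups). P-values were adjusted by Benjamini-Hochberg over 14610 genes, in 7 comparisons. The script was tested on simulated counts. The 10 genes, the gene lists and the libraries left out together were chosen with earlier results of these data known. The text names all 10 genes, abundant genes of each list, a few fixed regulators, and the 3 genes most correlated with each member or the first of them, and some named by this rule are not reported here. Alternatives were DESeq2 1.42.0, its size factors, other filters, no fold cutoff, a replicate block, 2 groups only, and libraries left out. Promoters were taken from RefSeq (GRCm38.p6). Mice were separate animals, and sequences of proteins were not used here. Plots were made in Python 3.11.15 (matplotlib 3.10.9).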

Additional observations from a re-analysis of the deposited data

How the results depend on the processing

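The 16 to 132 reads per library behind E2f7 and the 3 mice per group limit the precision, and counts of calls moved strongly with single libraries. The 21 settings turned no called member around. The 75 sign changes that occurred were all in log2 fold changes of at most 0.37 in size in the main fit. After the change of sign they were at most 0.41 in size, and they were called in no setting. The cause of each change below was not tested. The numbers of called members that moved by over 1.5 times, and the numbers of all called genes that did, are given by comparison. Leaving out the Paneth-rich libraries kept only replicate 2 of CBPAAp53ΔIEC, so no counts of calls are given for that setting.

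In CBPWTp53ΔIEC vs. CBPWTp53-floxed, 3 members and 460 genes became 0 and 32 with the replicate block, 5 and 1370 without both low p53ΔIEC libraries, 5 and 1729 without the libraries rich in Paneth cell RNA, and the genes 865 with DESeq2 and 723 with edgeR on the 2 groups only. In CBPAAp53ΔIEC vs. CBPAAp53-floxed, 0 members and 4 genes became 4 and 1205 without both low libraries, 4 and 1053 without the Paneth-rich ones, and the genes 69 with DESeq2, 11 with no filter, 2 with the block and 1 on the 2 groups only. In the p53 effect averaged over CBP genotypes, the 511 genes became 304 with the block, 1697 without both low libraries and 1692 without the Paneth-rich ones. In CBPAAp53-floxed vs. CBPWTp53-floxed, 0 genes became 33 with DESeq2, 3 with no filter, 12 without both low libraries and 42 without the Paneth-rich ones. In CBPAAp53ΔIEC vs. CBPWTp53ΔIEC, 1 gene became 0 with the block, without both low libraries and on the 2 groups only, and 8 without the Paneth-rich ones. For the CBP effect averaged over p53 states 1 gene became 5 with DESeq2, and for the interaction 1 gene became 30 with DESeq2, 2 with no filter, 0 with the block and without both low libraries, and 35 without the Paneth-rich ones.

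The shared replicate numbers of the groups did not pair the mice: r of same-numbered deviations ran from -0.53 to 0.55 over 18 pairs, 3 were over 0.1, and 3 of 12 libraries correlated best with their own number. With the replicate block the average over CBP genotypes had 3 called members and CBPWTp53ΔIEC vs. CBPWTp53-floxed had 0, and 18 of 28 S phase and 17 of 20 G2 and M phase targets were called in the average against 5 and 0 in CBPWTp53ΔIEC vs. CBPWTp53-floxed.

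With each library left out in turn, the called members ranged from 0 to 5 in CBPWTp53ΔIEC vs. CBPWTp53-floxed, 0 to 3 in CBPAAp53ΔIEC vs. CBPAAp53-floxed and 0 to 4 in the average over CBP genotypes. All called genes ranged from 1 to 906, 1 to 326 and 105 to 1073 in these, and from 0 to 2 in CBPAAp53-floxed vs. CBPWTp53-floxed, 0 to 1 in CBPAAp53ΔIEC vs. CBPWTp53ΔIEC and 0 to 1 in the interaction.

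Sign changes without both low libraries were seen for Rb1, at 0.0076 in CBPWTp53ΔIEC vs. CBPWTp53-floxed, -0.023 in CBPAAp53ΔIEC vs. CBPAAp53-floxed, -0.13 in CBPAAp53ΔIEC vs. CBPWTp53ΔIEC and -0.031 in the interaction, and for E2f6, at -0.010 in the interaction. Without the Paneth-rich libraries they were 0.0082, -0.15, -0.19 and -0.16 for Rb1 in the same order, -0.056 for E2f4 in CBPAAp53-floxed vs. CBPWTp53-floxed, 0.11 for E2f3 in CBPAAp53ΔIEC vs. CBPWTp53ΔIEC, 0.050 for E2f7 and 0.067 for E2f8 in the CBP average, and 0.022 for E2f3, -0.037 for E2f5 and -0.00089 for E2f6 in the interaction.

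With single libraries left out, signs changed within these ranges. In CBPAAp53-floxed vs. CBPWTp53-floxed they were -0.064 to 0.14 for E2f2, -0.086 to 0.14 for E2f3, -0.059 to 0.073 for E2f4 and -0.41 to 0.37 for E2f8. In CBPWTp53ΔIEC vs. CBPWTp53-floxed Rb1 ran from -0.17 to 0.0073. In CBPAAp53ΔIEC vs. CBPAAp53-floxed E2f5 ran from -0.13 to 0.12 and Rb1 from -0.030 to 0.12. In CBPAAp53ΔIEC vs. CBPWTp53ΔIEC the ranges were -0.38 to 0.13 for E2f1, -0.12 to 0.16 for E2f3, -0.11 to 0.10 for E2f6, -0.57 to 0.037 for E2f8, -0.066 to 0.12 for Rb1 and -0.29 to 0.057 for Rbl1. In the p53 average E2f5 ran from -0.095 to 0.024 and Rb1 from -0.066 to 0.028. In the CBP average the ranges were -0.041 to 0.22 for E2f1, -0.046 to 0.11 for E2f3, -0.084 to 0.025 for E2f6, -0.24 to 0.091 for E2f7, -0.35 to 0.063 for E2f8 and -0.085 to 0.0094 for Rb1. In the interaction they were -0.17 to 0.11 for E2f3, -0.066 to 0.18 for E2f5, -0.056 to 0.16 for E2f6, -0.65 to 0.13 for E2f8 and -0.21 to 0.14 for Rbl1.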
